A study of Homo sapiens with 8 samples.

Results

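The genes described here encode the proteins of the mitochondrial ribosome. They are the protein-coding genes whose symbol begins with MRPL (large subunit) or MRPS (small subunit), together with DAP3, a small-subunit protein with a symbol of its own. Pseudogenes were left out. The annotation held 79 such genes, and 78 of them were rows of both deposited tables, among 25431 genes listed for 769-P and 24190 for CAKI-1. By symbol, 49 belonged to the large subunit and 29 to the small subunit. The remaining member, MRPS18B, was not analysed here. The genes were measured by RNA-seq in 769-P and CAKI-1, established human cell lines of clear cell renal cell carcinoma (RCC), after 16 hours in medium with or without branched-chain amino acids (BCAA). The BCAA groups of both lines received valine at 0.17 mM along with leucine and isoleucine, each at 0.38 mM, and the groups without BCAA received none of them. Each of the 4 groups (769-P with BCAA, 769-P without BCAA, CAKI-1 with BCAA, CAKI-1 without BCAA) had 2 libraries. No other agent or allele was part of the labels, and per the study's methods the depleted medium was RPMI 1640 with dialyzed serum, while routine culture was in RPMI 1640 for 769-P and in MEM for CAKI-1. Each line is a single cultured line, so that a difference between them is a difference between 2 lines.

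The mitochondrial ribosome translates the mRNAs of the mitochondrial genome, which encode core subunits of the respiratory chain and the ATP synthase. Its rRNAs come from mitochondrial DNA, whereas all of its proteins are encoded in the nucleus, made by cytosolic ribosomes and imported. Many of these proteins have a counterpart in the bacterial ribosome. Others are specific to mitochondria and cover surfaces that rRNA covers in bacteria. The large subunit holds the peptidyl transferase center and the tunnel through which new proteins leave toward the inner membrane, and the small subunit holds the mRNA and the decoding site.

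Values are normalized reads, that is, the reads of a gene divided by 1 size factor per library, which the authors set separately for each line. Levels were therefore compared within a line only. Between 30979773 and 64256834 reads lay on listed genes, and in 769-P the libraries with BCAA were the deeper ones. Fold changes are on the log2(value + 1) scale, with BCAA against without, and a gene was called at a limma adjusted p of 0.05 over all genes tested. Where the call of a single member is said below to be lost without a library, the spread came from the other 7 libraries. The labels do not say whether the libraries came from separate cultures, so the p-values measure the spread between these libraries, which may be technical. Of 8 renal carcinoma markers, 7 were tested in 769-P and 6 in CAKI-1 (CA9 was not tested in either line, nor PAX2 in CAKI-1). A gene was tested if its mean reached 1 normalized read. In each line 2 of 4 leukocyte markers and 1 of 4 endothelial markers were tested as well. The listed leukocyte and endothelial markers reached at most 10.3 normalized reads in any library. Levels of the renal markers are not given here, and the identity of the lines rests on the labels.

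In 769-P, most mitochondrial ribosomal protein genes were higher with BCAA. Of the 78 members, 53 rose, 6 fell and 19 did not pass the test, while 20.3% of the 22391 genes tested were called higher and 18.2% lower. The median log2 fold change was 0.28 over the members and -0.022 over all genes tested. In CAKI-1, 9 members rose, 8 fell and 61 did not pass, beside 10.8% of 21347 genes called higher and 9.05% lower. The median over the members was 0.049, and that over all genes was -0.0085. The share of members called in CAKI-1 was thus near that of all genes. The members' balance there moved with the scaling, from 9 higher and 8 lower to 13 and 5 with median centering and to 3 and 7 with quantile normalization. Over all 21347 genes the counts moved as well, from 2312 higher and 1931 lower to 2647 and 1551, and to 1417 and 1391. Reads thinned to the shallowest library gave 50 higher and 4 lower in 769-P, and 4 higher and 4 lower in CAKI-1. Over all genes, thinning gave 3827 higher and 3494 lower in 769-P, and 1454 higher and 1050 lower in CAKI-1. Within 769-P, leaving out any 1 library left 42 to 46 higher and 0 to 2 lower when the spread came from the other 7 libraries (17.4% to 18.6% of all genes higher). When it came from the other 3, 4 to 14 members were higher and 0 to 1 lower, beside 5.24% to 7.29% of all genes higher. The 4 of 78 members, without replicate 1 without BCAA, were no larger a share than that of all genes. In bulk RNA, a change in the make-up of the cells and a change in RNA per cell cannot be told apart.

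The rises in 769-P were modest in size. Only MRPL33, MRPL14 and MRPL20 rose by at least 1.5-fold, 3 of 78 members, where 8.86% of all genes did. No called rise in CAKI-1 reached 1.5-fold, where 3.4% of all genes did. The called rises in 769-P ranged from 0.14 for MRPL41 to 1.04 for MRPL33 on the log2 scale, and those in CAKI-1 from 0.22 for MRPL18 to 0.51 for MRPS11. The calls overlapped between the lines for some genes. Called higher in both were MRPL13, MRPL16, MRPL18, MRPL19, MRPL39, MRPL50, MRPS11, MRPS12 and MRPS34, which are all 9 members called higher in CAKI-1. DAP3 and MRPL10 were called lower in both, and MRPL24 and MRPS35 were higher in 769-P and lower in CAKI-1.

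**Figure D1:**
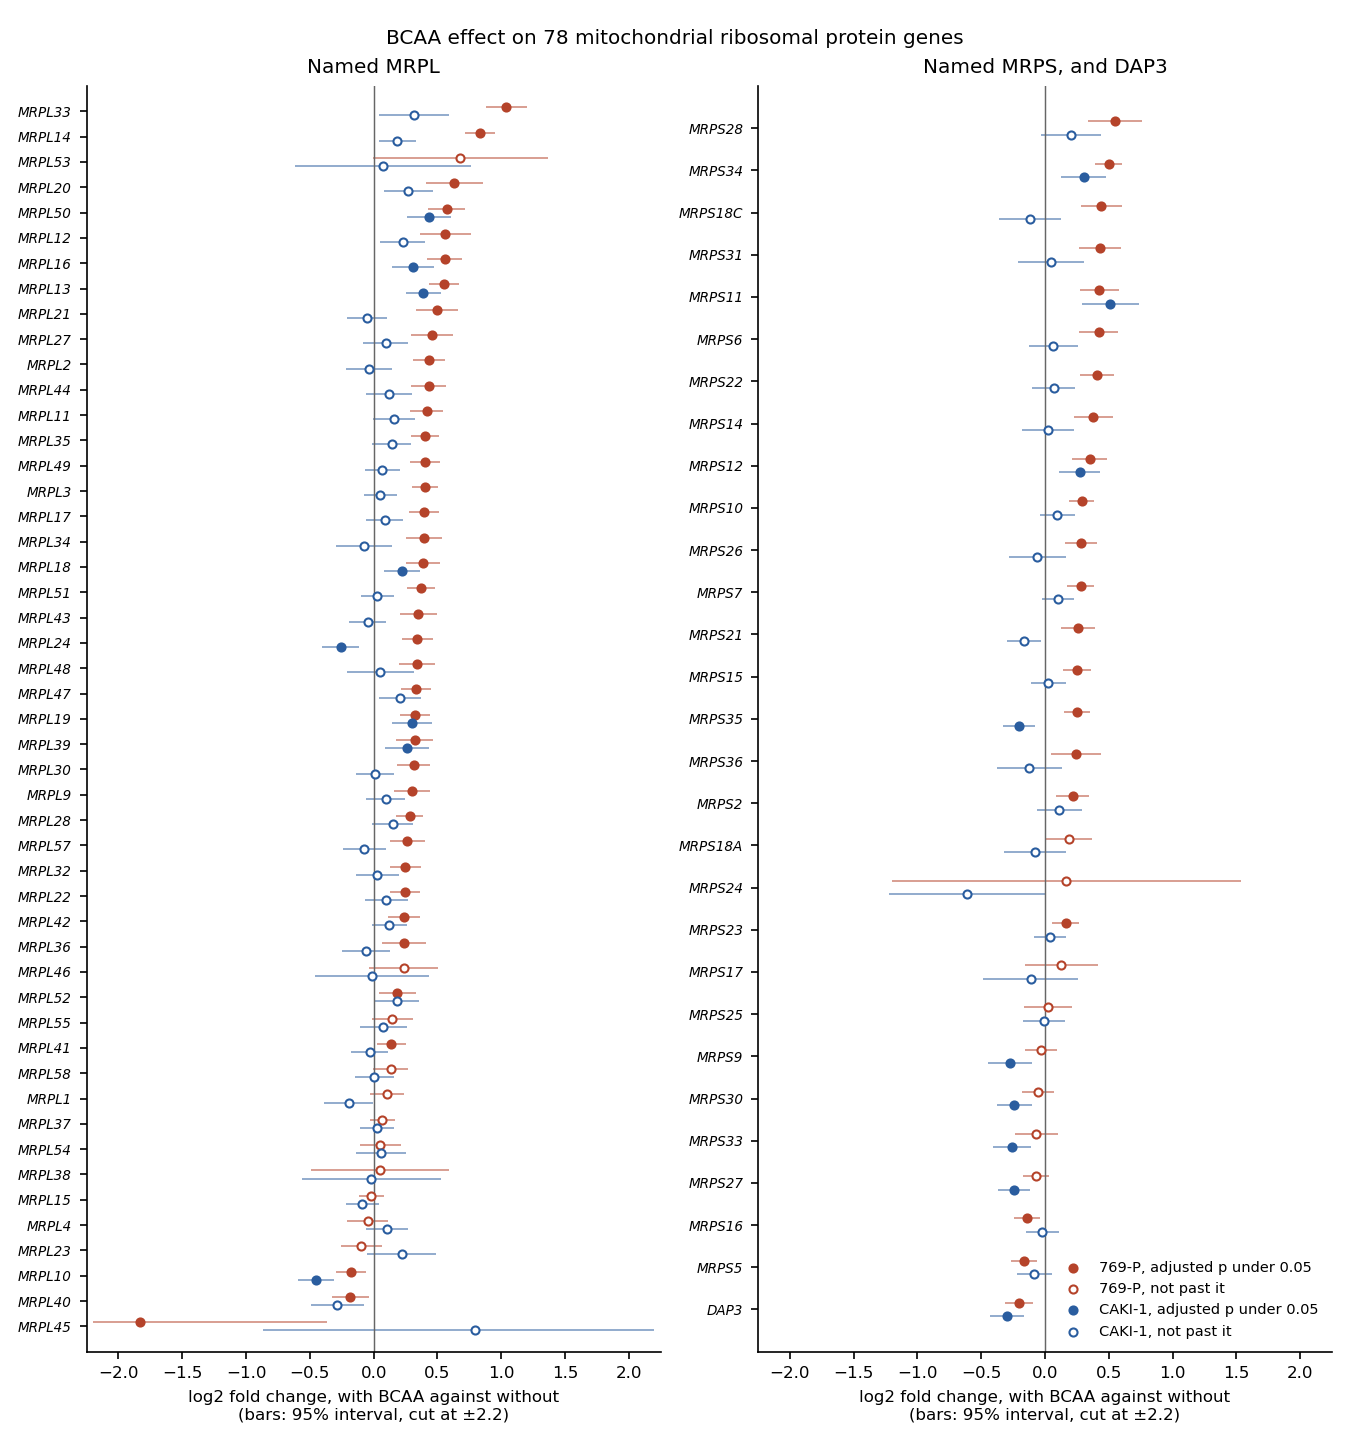
Log2 fold change with BCAA against without (x axis, log2 scale) of each of the 78 genes in 769-P (red) and CAKI-1 (blue), with large-subunit genes on the left and small-subunit genes on the right, ordered by the value in 769-P. Bars are 95% intervals and filled points have an adjusted p under 0.05. Most red points lie right of 0, while the blue points lie around it.

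The promoters of MRPL50 and MRPS11, the genes of each subunit with the largest rise common to 769-P and CAKI-1, are shown with that of DAP3, which fell in both. DAP3 was chosen after its values were seen, in place of MRPL45, whose fall rested on 29 reads. MRPL10 fell further than DAP3 in CAKI-1 (log2 fold changes of -0.45 and -0.30), but no promoter entry was available for it. Each is the RefSeq stretch from 250 bases before to 50 bases after an annotated start (GRCh38.p14), at chr9:101398569-101398868 on the minus strand for MRPL50, chr15:88467458-88467757 on the plus strand for MRPS11, and chr1:155688841-155689140 on the plus strand for DAP3. The windows shown for MRPS11 and DAP3 lie inside the gene spans of the annotation used for gene coordinates, which start at 88467453 and 155687960. They hold no sequence upstream of those starts. Capitals mark a match to any of 8 short motifs.
MRPL50: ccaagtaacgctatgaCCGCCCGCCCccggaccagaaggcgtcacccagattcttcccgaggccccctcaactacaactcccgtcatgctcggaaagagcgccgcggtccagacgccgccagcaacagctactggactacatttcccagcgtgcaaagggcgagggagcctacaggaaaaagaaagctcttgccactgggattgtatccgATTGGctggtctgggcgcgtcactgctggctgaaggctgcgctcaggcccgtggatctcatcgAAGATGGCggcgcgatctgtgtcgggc
MRPS11: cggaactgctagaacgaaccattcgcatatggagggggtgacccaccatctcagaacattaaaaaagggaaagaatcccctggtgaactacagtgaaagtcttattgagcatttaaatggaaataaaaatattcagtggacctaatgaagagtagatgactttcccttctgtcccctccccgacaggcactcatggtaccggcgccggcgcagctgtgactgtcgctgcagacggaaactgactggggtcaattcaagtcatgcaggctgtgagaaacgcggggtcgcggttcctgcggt
DAP3: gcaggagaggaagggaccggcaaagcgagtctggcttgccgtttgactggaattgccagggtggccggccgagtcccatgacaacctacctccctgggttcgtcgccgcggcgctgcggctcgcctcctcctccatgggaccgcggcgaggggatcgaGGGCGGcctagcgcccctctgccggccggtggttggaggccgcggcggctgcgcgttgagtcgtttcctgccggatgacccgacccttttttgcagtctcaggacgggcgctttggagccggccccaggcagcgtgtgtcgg
In MRPL50 the capitals are overlapping GC boxes, an inverted CCAAT box and AAGATGGC 23 bases after the first base of the transcript. The DAP3 window holds 1 GC box, and the MRPS11 window holds none of the 8.

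Both subunits moved in the same direction in 769-P. Of 49 large-subunit genes, 35 rose, 3 fell and 11 did not pass, with a median log2 fold change of 0.32. Of 29 small-subunit genes, 18 rose, 3 fell and 8 did not pass, with a median of 0.25. The middle 50% of the large-subunit values spanned 0.15 to 0.41, and that of the small-subunit values 0.024 to 0.38, so the distributions overlapped widely. In CAKI-1, 6 large-subunit genes rose and 2 fell, with a median of 0.076. Among the small-subunit genes of CAKI-1, 3 rose and 6 fell, with a median of -0.02, which turned to 0.022 with median centering. As shares in CAKI-1, 4.08% of large-subunit and 20.7% of small-subunit genes were lower, beside 9.05% of all genes. Called higher there were 12.2% and 10.3%, beside 10.8% of all genes. In 769-P, 71.4% and 62.1% were higher, beside 20.3% of all genes, and 6.12% and 10.3% lower, beside 18.2%. The median of the large subunit exceeded that of the small subunit by 0.071 in 769-P and by 0.096 in CAKI-1. This was a description of 49 and 29 genes and was not tested.

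Symbols do not always give the subunit. MRPS30 and MRPS18A carry small-subunit symbols but sit in the large subunit of the assembled ribosome, and MRPS36 is now known as a component of the 2-oxoglutarate dehydrogenase complex. With these genes placed by structure, 35 of 51 large-subunit genes rose and 3 fell in 769-P, and 17 of 26 small-subunit genes rose and 3 fell. The medians were then 0.32 and 0.26 in 769-P and 0.073 and 0.0093 in CAKI-1. MRPS36 itself had a log2 fold change of 0.24 in 769-P (adjusted p = 0.0472) and of -0.12 in CAKI-1 (adjusted p = 0.529).

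The reads themselves showed the same pattern. In 769-P, the 78 genes together took 4393 and 4515 reads per 1000000 with BCAA, and 3750.4 and 3748 without. The libraries with BCAA lay above those without. In CAKI-1 they took 3974 and 4096 reads per 1000000 with BCAA and 4056 and 3915 without, and the groups overlapped. The ratio of large-subunit to small-subunit reads was 1.51 and 1.5 with BCAA in 769-P, against 1.36 and 1.35 without. In CAKI-1 the ratio was 1.39 and 1.36 with BCAA, against 1.25 and 1.25 without. The ratio was thus higher with BCAA in each library of both lines, by 1.11-fold in 769-P and 1.1-fold in CAKI-1. It does not scale with library size, since both sums come from 1 library, but abundant genes weigh most in it. Leaving out any 1 gene kept the factor between 1.09 and 1.13 in 769-P and between 1.08 and 1.12 in CAKI-1, lowest without DAP3 in both. With 2 libraries against 2, the exact permutation test of a single value cannot give a p under 0.333.

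**Figure D2:**
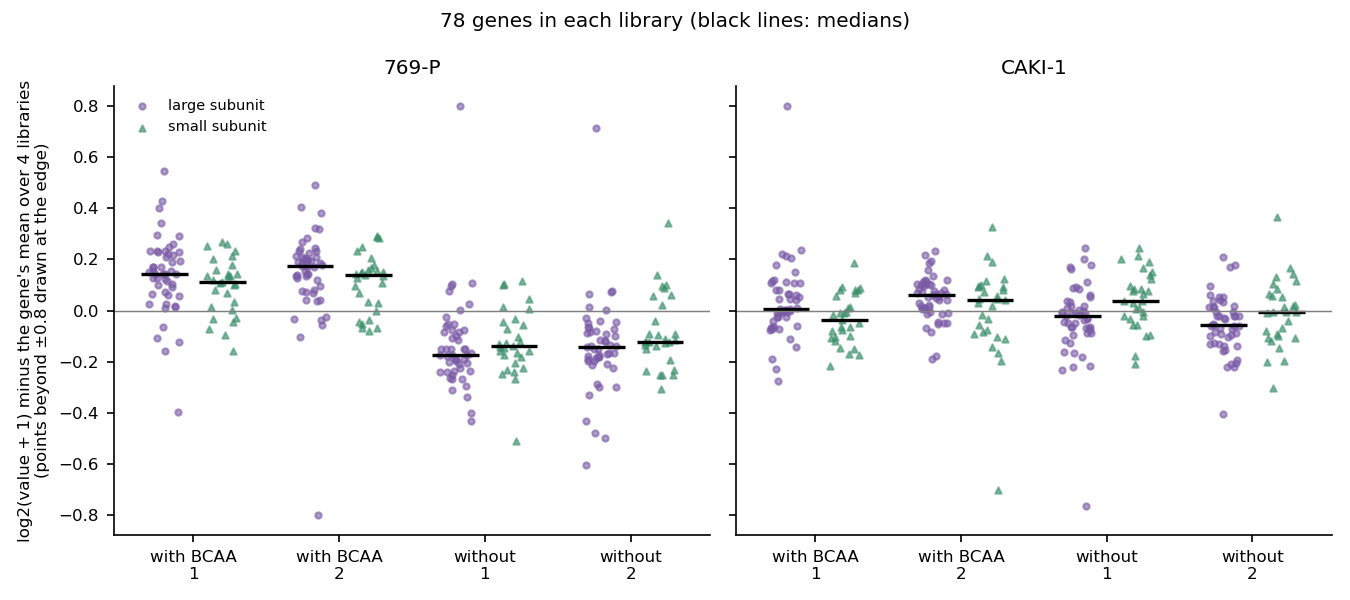
Deviation of each gene's log2(value + 1) from its mean over the 4 libraries of its line (y axis) in each library (x axis), with large-subunit genes as circles, small-subunit genes as triangles and medians as black lines. In 769-P the medians with BCAA lie between 0.11 and 0.17 and those without between -0.17 and -0.12, while in CAKI-1 they lie within 0.062 of 0.

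MRPL33, a small protein with a bacterial counterpart that binds rRNA of the large subunit, had the largest rise in 769-P. It had 2177 and 2096 normalized reads with BCAA and 1102 and 977 without in 769-P, a 2.06-fold difference (log2 fold change 1.04 ± 0.073 (SE), adjusted p = 3.21e-07). In CAKI-1 it had 3519 and 3912 normalized reads with BCAA and 3538 and 2514 without (log2 fold change 0.31 ± 0.12 (SE), adjusted p = 0.106). Its libraries separated by condition in 769-P but overlapped in CAKI-1, where 1 library without BCAA lay between those with it. MRPL33 (ENSG00000243147) lies at chr2:27771717-27988087 on the plus strand of hg38 and shares 21.1% of its exon bases with BABAM2 on the same strand.

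MRPL14 (ENSG00000180992, chr6:44113454-44127457, minus strand), a protein at the interface between the subunits, followed. It had 3394 and 3344 normalized reads with BCAA and 1910.4 and 1869.8 without in 769-P (log2 fold change 0.83 ± 0.054 (SE), adjusted p = 1.68e-07), with no overlap between the groups. In CAKI-1 it had 2168 and 2252 normalized reads with BCAA and 1948 and 1939 without, again without overlap but short of the threshold (log2 fold change 0.18 ± 0.065 (SE), adjusted p = 0.0718). MRPL20, an rRNA-binding protein known from early assembly of the large subunit in bacteria, had 1532 and 1361 normalized reads with BCAA and 1043 and 830.4 without in 769-P (log2 fold change 0.63 ± 0.10 (SE), adjusted p = 3.50e-04). Its CAKI-1 values were 1482 and 1317 normalized reads with BCAA and 1093 and 1225 without (log2 fold change 0.27 ± 0.088 (SE), adjusted p = 0.0518). MRPL16, which lies near the peptidyl transferase center, was called in both lines, with 2554 and 2332 normalized reads with BCAA and 1669 and 1648 without in 769-P (log2 fold change 0.56 ± 0.063 (SE), adjusted p = 1.97e-05). In CAKI-1 MRPL16 had 1925 and 2030.3 normalized reads with BCAA and 1672 and 1525 without (log2 fold change 0.31 ± 0.074 (SE), adjusted p = 0.0128), a call lost with quantile normalization, with thinned reads and without replicate 2 of CAKI-1 without BCAA. For MRPL20 and MRPL16 the libraries with BCAA lay above those without in both lines.

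MRPL50 (ENSG00000136897, chr9:101387633-101398614, minus strand), a mitochondria-specific protein, ranked first among large-subunit genes called higher in both lines, by the smaller of its 2 values. It had 1593 and 1679.5 normalized reads with BCAA and 1113 and 1088 without in 769-P (log2 fold change 0.57 ± 0.067 (SE), adjusted p = 2.47e-05). In CAKI-1 it had 1130.5 and 1134 normalized reads with BCAA and 836 and 842 without (log2 fold change 0.43 ± 0.078 (SE), adjusted p = 0.00254). In each line the libraries with BCAA all lay above those without. MRPL13, a core large-subunit protein, was also called in both, with 4587 and 4878 normalized reads with BCAA and 3283 and 3176 without in 769-P (log2 fold change 0.55 ± 0.053 (SE), adjusted p = 4.52e-06). Its values in CAKI-1 were 2676 and 2638 normalized reads with BCAA and 2046 and 2010.0 without (log2 fold change 0.39 ± 0.063 (SE), adjusted p = 0.00131). MRPL19, at the subunit interface, had 3753 and 3609 normalized reads with BCAA and 2915 and 2964 without in 769-P (log2 fold change 0.32 ± 0.052 (SE), adjusted p = 3.12e-04) and 2922 and 2590.3 normalized reads with BCAA and 2206 and 2261 without in CAKI-1 (log2 fold change 0.30 ± 0.073 (SE), adjusted p = 0.0131). The CAKI-1 call of MRPL19 was lost with quantile normalization and with thinned reads.

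The stalk of the large subunit recruits translation factors, and its genes split. MRPL12, which forms the flexible part of the stalk, had 717 and 705 normalized reads with BCAA and 463 and 501 without in 769-P (log2 fold change 0.56 ± 0.092 (SE), adjusted p = 3.60e-04) and 1011 and 1020.1 normalized reads with BCAA and 859 and 875 without in CAKI-1 (log2 fold change 0.23 ± 0.079 (SE), adjusted p = 0.0682). In the annotation, 68.2% of the exon bases of MRPL12 are shared with AC139530.2, which was listed with 0 reads. MRPL11, at the stalk base, had 2626 and 2760.3 normalized reads with BCAA and 1970.0 and 2069 without in 769-P (log2 fold change 0.41 ± 0.059 (SE), adjusted p = 1.18e-04) and 2217 and 2479 normalized reads with BCAA and 2172 and 2028 without in CAKI-1 (log2 fold change 0.16 ± 0.075 (SE), adjusted p = 0.173). MRPL10, which anchors MRPL12, went the other way and had 2727 and 2859 normalized reads with BCAA and 3192 and 3126 without in 769-P (log2 fold change -0.18 ± 0.054 (SE), adjusted p = 0.0204). In CAKI-1 MRPL10 had 2488 and 2658 normalized reads with BCAA and 3572 and 3478 without, the largest called fall of any member there (log2 fold change -0.45 ± 0.064 (SE), adjusted p = 5.32e-04). The conditions of all 3 stalk genes were apart in each line. In 769-P the call of MRPL10 (ENSG00000159111, chr17:47823272-47831534, minus strand) was lost with median centering and, with the spread from 7 libraries, on leaving out any of 3 libraries (replicate 1 with BCAA, or either without).

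Of the 6 genes assigned to the exit tunnel, 4 rose and 1 fell in 769-P, and 1 fell in CAKI-1. MRPL24 had 3438 and 3515 normalized reads with BCAA and 2643 and 2844 without in 769-P (log2 fold change 0.34 ± 0.056 (SE), adjusted p = 3.67e-04) and 3104 and 3382 normalized reads with BCAA and 3962 and 3787 without in CAKI-1 (log2 fold change -0.26 ± 0.065 (SE), adjusted p = 0.0171). With BCAA both libraries were higher in 769-P and both were lower in CAKI-1, with no overlap in either line, and its call in CAKI-1 was lost with thinned reads and without replicate 1 of either CAKI-1 group. MRPL45, which tethers the ribosome to the inner membrane, had only 4.55 and 1.71 normalized reads with BCAA and 14.9 and 11 without in 769-P, with a fitted log2 fold change of -1.83 (adjusted p = 0.0487). Both libraries with BCAA were the lower ones, but that call rested on 29 reads over the 4 libraries and was lost in edgeR, in DESeq2, with the other scalings tried and without any 1 library. In CAKI-1, MRPL45 had 18 reads in all, with 3 or fewer in both libraries without BCAA. The pseudogene MRPL45P2 held 251 reads in 769-P and 658 in CAKI-1. Of the 7 genes of the central protuberance, which contacts the small subunit, 3 rose and 1 fell in 769-P and 1 rose in CAKI-1. The member that fell, MRPL40, had 1530.1 and 1679.5 normalized reads with BCAA and 1841 and 1800.1 without in 769-P (log2 fold change -0.18 ± 0.066 (SE), adjusted p = 0.0475), a call lost in edgeR, in DESeq2 and without any 1 of the 4 libraries. In CAKI-1 MRPL40 had 651 and 736 normalized reads with BCAA and 826 and 861 without (log2 fold change -0.28 ± 0.094 (SE), adjusted p = 0.0549). MRPL40 was lower with BCAA in both libraries of each line. MRPL3, next to the peptidyl transferase center and among the most abundant members, had 7879 and 7537 normalized reads with BCAA and 5874 and 5794 without in 769-P (log2 fold change 0.40 ± 0.046 (SE), adjusted p = 1.99e-05) and 6254 and 5936 normalized reads with BCAA and 6024 and 5736 without in CAKI-1 (log2 fold change 0.052 ± 0.059 (SE), adjusted p = 0.608).

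In the small subunit, MRPS11 (ENSG00000181991, chr15:88467453-88480773, plus strand), a platform protein near the path of the mRNA, had the largest called rise of any member in CAKI-1. It had 1310.2 and 1374 normalized reads with BCAA and 985 and 1010.1 without in 769-P (log2 fold change 0.43 ± 0.07 (SE), adjusted p = 3.61e-04) and 628 and 695 normalized reads with BCAA and 478 and 448 without in CAKI-1 (log2 fold change 0.51 ± 0.10 (SE), adjusted p = 0.00441). MRPS12, part of the decoding site, had 2324 and 2246 normalized reads with BCAA and 1728 and 1855 without in 769-P (log2 fold change 0.35 ± 0.062 (SE), adjusted p = 6.35e-04) and 1776 and 1919.6 normalized reads with BCAA and 1484 and 1576 without in CAKI-1 (log2 fold change 0.27 ± 0.074 (SE), adjusted p = 0.0239). Neither gene overlapped between conditions in either line. The third gene assigned to decoding and mRNA sites, MRPS7, rose in 769-P (log2 fold change 0.28, adjusted p = 6.06e-04) and had 0.10 in CAKI-1 (adjusted p = 0.258). MRPS34, a mitochondria-specific protein needed for a stable small subunit, had 5457 and 5322 normalized reads with BCAA and 3814 and 3806 without in 769-P (log2 fold change 0.50 ± 0.048 (SE), adjusted p = 4.24e-06) and 1428 and 1558 normalized reads with BCAA and 1253 and 1166 without in CAKI-1 (log2 fold change 0.30 ± 0.079 (SE), adjusted p = 0.0193). The conditions of MRPS34 were apart in both lines. With quantile normalization or thinned reads, MRPS12 and MRPS34 were no longer called in CAKI-1, and MRPS12 was lost there also without replicate 2 with BCAA or replicate 1 without.

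DAP3 (ENSG00000132676, chr1:155687960-155739010, plus strand), a GTP-binding protein at the bridge between the subunits that was first described in cell death, fell in both lines. It had 6022 and 6515 normalized reads with BCAA and 7285 and 7159 without in 769-P (log2 fold change -0.21 ± 0.05 (SE), adjusted p = 0.0059). In CAKI-1 it had 7828 and 8629 normalized reads with BCAA and 10219 and 9973 without (log2 fold change -0.30 ± 0.061 (SE), adjusted p = 0.00551). The conditions did not overlap in either line, and DAP3 was the small-subunit gene with the most reads per 1000000 without BCAA in 769-P, with 148. With the spread from the other 7 libraries, its call in 769-P was lost without replicate 1 of either 769-P group. MRPS9, a head protein with a bacterial counterpart, had 1899 and 1937 normalized reads with BCAA and 1946 and 1968 without in 769-P (log2 fold change -0.029 ± 0.058 (SE), adjusted p = 0.739) and 1286 and 1236 normalized reads with BCAA and 1606 and 1443 without in CAKI-1 (log2 fold change -0.27 ± 0.079 (SE), adjusted p = 0.0322). The CAKI-1 call of MRPS9 was lost with median centering, with thinned reads, with no filter on low values and without replicate 1 of CAKI-1 without BCAA. The other small-subunit symbols called lower in CAKI-1 were MRPS27, MRPS30, MRPS33 and MRPS35, with log2 fold changes of -0.24, -0.24, -0.26 and -0.20. In 769-P, MRPS5 and MRPS16 were called lower, at -0.16 and -0.14.

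The MRPS18 genes are paralogs of 1 bacterial protein that occupy different places in the ribosome. MRPS18C, which holds the bacterial position, had 1106 and 1086 normalized reads with BCAA and 816 and 799 without in 769-P (log2 fold change 0.44 ± 0.074 (SE), adjusted p = 4.33e-04) and 626 and 515 normalized reads with BCAA and 596 and 636 without in CAKI-1 (log2 fold change -0.12 ± 0.11 (SE), adjusted p = 0.535). MRPS18A, in the large subunit, had 842 and 917 normalized reads with BCAA and 791 and 749.6 without in 769-P (log2 fold change 0.19 ± 0.083 (SE), adjusted p = 0.094) and 511 and 612 normalized reads with BCAA and 610.1 and 573 without in CAKI-1 (log2 fold change -0.08 ± 0.11 (SE), adjusted p = 0.683). In 769-P both genes were higher in each library with BCAA and MRPS18C alone passed the test, while in CAKI-1 the conditions overlapped for both. MRPS18A shares 47.0% of its exon bases with RSPH9 and MRPS18C 40.2% with ABRAXAS1, both on the opposite strand, and whether the counting used strand is not given in the sources used here. MRPS30, the other small-subunit symbol found in the large subunit, had 3891 and 3742 normalized reads with BCAA and 3769 and 4151 without in 769-P (log2 fold change -0.052 ± 0.058 (SE), adjusted p = 0.533) and 2269.7 and 2355 normalized reads with BCAA and 2741 and 2722 without in CAKI-1 (log2 fold change -0.24 ± 0.063 (SE), adjusted p = 0.0195). That call was lost with median centering and without replicate 1 of either CAKI-1 group.

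**Figure D3:**
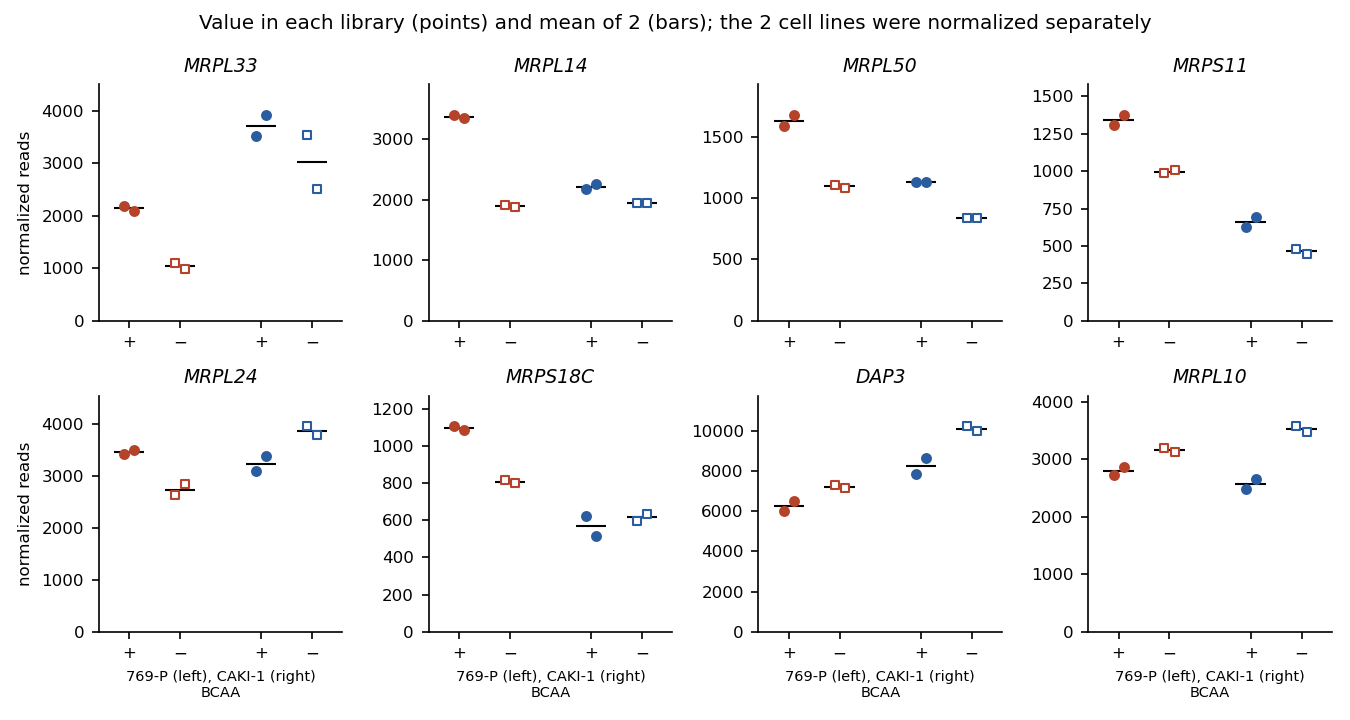
Normalized reads (y axis, linear from 0) of 8 members in each library, with (+) and without (−) BCAA, for 769-P (red, left) and CAKI-1 (blue, right). Points are libraries and bars are means of 2. MRPL33 and MRPL14 separate widely in 769-P, MRPL50 and MRPS11 are higher with BCAA in both lines, MRPL24 goes in opposite directions, and DAP3 and MRPL10 are lower with BCAA in both.

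The BCAA effect differed between the cell lines for 21 of the 78 members, and each of these 21 had the higher fold change in 769-P. Over all 19406 genes tested in both tables, 10.9% had a called difference toward 769-P and 10.1% toward CAKI-1. The median difference was 0.24 over the members, on the log2 scale, and 0.007 over all genes, and it was above 0 for 71 of 78 members. No member had a called difference toward CAKI-1 in this limma fit, in edgeR or in DESeq2, and 2 had an unadjusted limma p under 0.05. In 2 alternative limma fits 1 member did, MRPL45 with a pseudocount of 5 and MRPL23 without replicate 2 of CAKI-1 without BCAA, beside 23 toward 769-P in each. The largest called differences were those of MRPL33 (0.73 ± 0.17 SE, adjusted p = 0.0074), MRPL14 (0.65 ± 0.08, adjusted p = 6.72e-05), MRPL24 (0.60 ± 0.086, adjusted p = 2.37e-04) and MRPS18C (0.56 ± 0.14, adjusted p = 0.011). For MRPL10 the called difference of 0.28 ± 0.081 (adjusted p = 0.0257) was a smaller fall in 769-P, and the call was lost with thinned reads. By symbol, 16 of the 21 were large-subunit and 5 were small-subunit genes. Genes that rose in both lines did not differ past the threshold, as for MRPL19, with a difference of 0.023 ± 0.09 (adjusted p = 0.894), and MRPS11, with -0.086 ± 0.12 (adjusted p = 0.677). Their 95% intervals ran from -0.17 to 0.22 and from -0.35 to 0.17.

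The order of the members by effect was partly shared. Over the 74 members whose mean reached 100 normalized reads in both tables, the log2 fold changes of the 2 lines had a Pearson correlation of 0.63 and a Spearman correlation of 0.59, although the level of the effects differed. Over all 78 the Pearson value was 0.09 and the Spearman value 0.53. These are correlations across genes of the same libraries, which are not independent replicates. Members with shorter transcripts had somewhat higher fold changes in 769-P, with a Spearman correlation of -0.25 between fold change and transcript length over the 74 members, and -0.14 over 10613 protein-coding genes of the same minimum. In CAKI-1 the values were -0.13 and 0.087.

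**Figure D4:**
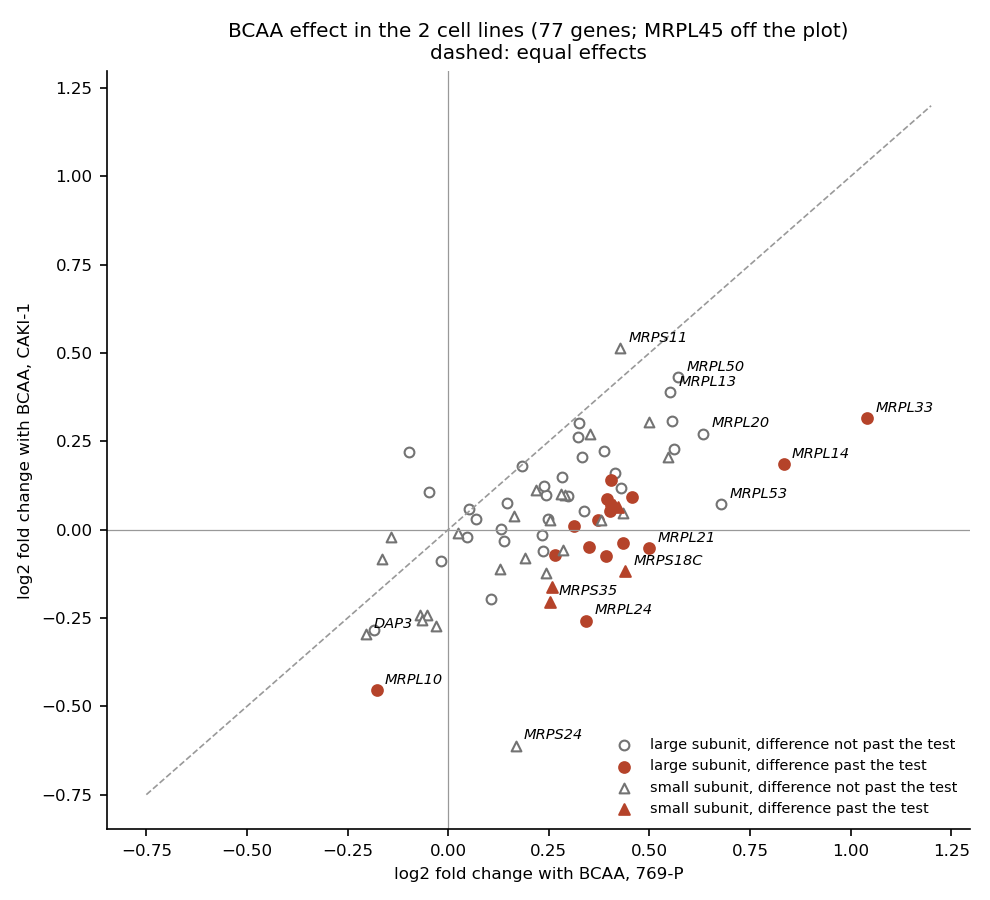
Log2 fold change with BCAA in 769-P (x axis) against that in CAKI-1 (y axis) for 77 members, with large-subunit genes as circles and small-subunit genes as triangles. Filled red symbols are the 21 genes whose effect differed between the lines, and all of them lie below the dashed line of equal effects. MRPL45, with 29 and 18 reads, is not drawn.

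The members were also divided by origin. In 769-P, 20.3% of all genes were called higher and 18.2% lower. Of 45 members with a bacterial counterpart, 35 rose and 3 fell there, with a median log2 fold change of 0.33. Of 33 mitochondria-specific genes, 18 rose and 3 fell, with a median of 0.23. Within the large subunit by structure, 24 of 29 with a counterpart and 11 of 22 without rose in 769-P. Within the small subunit, 11 of 16 and 6 of 10 rose in that line. In CAKI-1, 6 of 45 with a counterpart rose and 3 fell, and 3 of 33 without rose and 5 fell. The medians were 0.093 and 0.027, and 10.8% of all genes were called higher and 9.05% lower. The difference between these classes was not tested. Of the 4 members with a mean under 100, MRPL38, MRPL45 and MRPL53 were mitochondria-specific and MRPS24 has a bacterial counterpart.

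The levels of the members differed far more among themselves than with BCAA. On the scale of normalized reads per kilobase of transcript, averaged over the 4 libraries of a line, the median member had 1729 in 769-P, with a middle 50% from 1223 to 2985. In CAKI-1 the median was 1429, with 808 to 2198. The highest levels per kilobase in 769-P were those of MRPL51 (8446), MRPL49 (7202) and MRPL15 (6409.9), and in CAKI-1 those of MRPL33 (7312), MRPL51 (7292) and MRPL49 (5737). MRPL51 had 5099.8 and 5401 normalized reads with BCAA and 4039 and 4075 without in 769-P (log2 fold change 0.37 ± 0.05 (SE), adjusted p = 7.79e-05) and 4032 and 4080.5 normalized reads with BCAA and 3897 and 4064 without in CAKI-1 (log2 fold change 0.027 ± 0.059 (SE), adjusted p = 0.8). MRPL49 had 4266 and 4093 normalized reads with BCAA and 3083 and 3235 without in 769-P (log2 fold change 0.40 ± 0.053 (SE), adjusted p = 6.15e-05) and 3028 and 2957 normalized reads with BCAA and 2902 and 2804 without in CAKI-1 (log2 fold change 0.069 ± 0.062 (SE), adjusted p = 0.503). MRPL51 overlapped between conditions in CAKI-1, and MRPL49 did not overlap in either line. In the annotation, MRPL51 shares 31.3% of its exon bases with NCAPD2 on the opposite strand. NCAPD2 had 44770 reads in 769-P and 29897 in CAKI-1, against 19626 and 16306 for MRPL51. MRPL15, a core large-subunit protein and the third most abundant per length in 769-P, had 7443 and 7174 normalized reads with BCAA and 7367 and 7426 without there (log2 fold change -0.018 ± 0.044 (SE), adjusted p = 0.797) and 3683 and 3838 normalized reads with BCAA and 4017 and 3974 without in CAKI-1 (log2 fold change -0.088 ± 0.059 (SE), adjusted p = 0.355).

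At the low end, MRPL45 had 4.94 normalized reads per kilobase in 769-P and 2.74 in CAKI-1, MRPL38 had 38.3 and 38.3, and MRPL53 had 58.2 and 50.2. MRPS24 had 10.6 in 769-P and 121 in CAKI-1. In the annotation, 45.2% of the exon bases of MRPL53 are shared with CCDC142, 37.5% of those of MRPL38 with AC087289.3 and 23.2% of those of MRPS24 with the read-through gene URGCP-MRPS24, all on the same strand. Such reads can be split or dropped by a counter. In all, 12 members share at least 20% of their exon bases with another protein-coding gene. Of these 4 genes, MRPL45 alone was called. MRPL38 had 66.7 and 80.4 normalized reads with BCAA and 73.3 and 68.5 without in 769-P and 69.1 and 74.1 normalized reads with BCAA and 81.7 and 64.3 without in CAKI-1, with overlap in both. MRPL53 had 53.8 and 57.3 normalized reads with BCAA and 38.5 and 30.6 without in 769-P (log2 fold change 0.68 ± 0.31 (SE), adjusted p = 0.113) and 38.9 and 40.8 normalized reads with BCAA and 37.1 and 38.6 without in CAKI-1. MRPS24 had 8.34 and 7.7 normalized reads with BCAA and 4.97 and 9.78 without in 769-P, against 90.5 and 51.6 normalized reads with BCAA and 101 and 109 without in CAKI-1 (log2 fold change -0.61 ± 0.28 (SE), adjusted p = 0.159). With these hard cases set aside (leaving members that share under 20% of exon bases and reach a mean of 100 in both tables), 47 of 65 members rose and 5 fell in 769-P, and 9 rose and 8 fell in CAKI-1.

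The 8 motifs marked in the promoters above were searched on both strands in 86 windows of 69 members and in all 35116 windows of the table, of which 21021 belonged to protein-coding genes. AAGATGGC, the core bound by YY1, was in 25.6% of the members' windows, in 2.89% of all windows and in 3.6% of those of coding genes. CCGGAAGT, an ETS site of the kind bound by GABP, was in 16.3%, 4.14% and 5.42%. GCGCATGC, the core of the NRF1 site, was in 5.81%, 3.05% and 3.77%. The E-box CACGTG was in 10.5%, 7.26% and 8.4%, CCAAT in 32.6%, 34.6% and 34.7%, and GGGCGG in 61.6%, 45% and 57.0%. TATAAA was in 3.49%, 11.5% and 9.26%, and TGATGNAA, the core of the amino acid response element, in 1.16%, 3.62% and 2.68%. AAGATGGC was in 13 of 47 members that rose in 769-P and in 7 of 22 others. CCGGAAGT was in 10 of 47 and 2 of 22, and GCGCATGC in 5 of 47 and 0 of 22. GGGCGG was in 26 and 17 of them, CCAAT in 15 and 8, CACGTG in 6 and 3, TATAAA in 2 and 1, and TGATGNAA in 0 and 1. Median log2 fold changes in 769-P with and without the motif were 0.24 and 0.31 for AAGATGGC. They were 0.41 and 0.25 for CCGGAAGT, and 0.25 and 0.28 for GCGCATGC. Matches are descriptions of letters and were given no test.

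Members often share their promoter region with a gene on the other strand. For 17 of 78 members (21.8%), the start of another coding gene lay on the opposite strand within 1000 bases upstream, as against 7.38% of 19951 protein-coding genes. MRPS11 and MRPL46, a central protuberance protein, are such a pair, with starts 34 bases apart. The stretch between those starts lies outside the MRPS11 window shown above. MRPS11 was called higher in both lines, while MRPL46 had log2 fold changes of 0.23 in 769-P (adjusted p = 0.168) and -0.016 in CAKI-1 (adjusted p = 0.97). Of the 16 partners tested in 769-P, 6 were higher and 3 lower, beside 20.3% of all genes higher and 18.2% lower. Their median log2 fold change was 0.054, against 0.32 for the 16 members beside them. MRPS11 and MRPL46 count both as members and as partners, and MRPS11 is among the 6 higher partners. Several partners moved more than the member itself, in either direction. The 3 lower partners in 769-P were SLC7A7 at -0.72, APBA3 at -0.68 and PNPLA7 at -0.61. They lie beside MRPL52, MRPL54 and MRPL41, which had log2 fold changes of 0.18, 0.052 and 0.14 there. MRPL27 (log2 fold change 0.46 in 769-P) lies beside EME1, a DNA repair nuclease gene with 0.96 in 769-P and 1.17 in CAKI-1, and MRPL57 (0.26 in 769-P) lies beside SKA3, a mitotic spindle gene with 1.29 and 1.49.

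The protein genes of the mitochondrial ribosome with other symbols were few. GADD45GIP1, CHCHD1, AURKAIP1 and PTCD3 were all called higher in 769-P, from 0.18 for GADD45GIP1 to 0.38 for CHCHD1. Their values in CAKI-1 did not pass and ran from 0.024 to 0.16. The translation factors did not move as a block. Of 12, 2 rose and 2 fell in 769-P, among them TSFM, the exchange factor of the elongation factor, at 0.67 (adjusted p = 1.21e-05), and GFM2, which acts in ribosome recycling, at -0.32 (adjusted p = 0.00107). In CAKI-1, 1 rose and 3 fell, with MTRF1L, a release factor, at 0.32 (adjusted p = 0.0486) and MTIF2, an initiation factor, at -0.41 (adjusted p = 0.00123). Of 26 assembly and rRNA modification genes, 10 rose and 4 fell in 769-P and 3 rose and 3 fell in CAKI-1. MALSU1, an assembly factor that binds MRPL14, had the largest called rise in 769-P, at 0.58 (adjusted p = 2.00e-05), and NGRN the largest fall, at -0.55 (adjusted p = 8.15e-06). In CAKI-1 the largest called rise was that of MRM2, an rRNA methyltransferase, at 0.28 (adjusted p = 0.0205). The largest called fall there was that of NOA1, a GTPase, at -0.55 (adjusted p = 3.38e-04).

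Of 12 genes for transcription of mitochondrial DNA and handling of its RNA, 7 rose and 3 fell in 769-P and 4 rose and 1 fell in CAKI-1. FASTKD5 had the largest rise in 769-P, at 0.58, and POLRMT, the mitochondrial RNA polymerase, the largest fall, at -0.31 (adjusted p = 0.00385). In CAKI-1 the largest rise was that of PNPT1, a ribonuclease, at 0.41 (adjusted p = 0.00103), and the only called fall that of LRPPRC, an mRNA-binding protein, at -0.25 (adjusted p = 0.00633). The mRNAs and rRNAs of the mitochondrial genome were not analysed here. Among 9 regulators, 4 rose and 3 fell in 769-P and 1 rose and 2 fell in CAKI-1. PPARGC1A, which encodes the coactivator PGC-1α, was at 0.78 in 769-P (adjusted p = 8.28e-07) and -0.73 in CAKI-1 (adjusted p = 0.312), and the difference was called (adjusted p = 0.00177). PPARGC1B had the largest rise in CAKI-1, at 0.70 (adjusted p = 0.00265). MYC had the largest called fall in 769-P, at -0.75 (adjusted p = 1.08e-07), and ESRRA the largest called fall in CAKI-1, at -0.29 (adjusted p = 0.00779). NRF1 and GABPA, which encode factors that bind motifs above, were at 0.34 and 0.29 in 769-P. Both were named after their values were seen, and the value of YY1, which binds AAGATGGC, is not given here.

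Set beside the other large families, the members lay between them. Of 76 tested nuclear genes for respiratory chain and ATP synthase subunits, 64 rose and 12 did not pass in 769-P, with a median log2 fold change of 0.47, and of 75 in CAKI-1, 12 rose and 2 fell, with a median of 0.067. ATP5MC3, a subunit of the ATP synthase rotor ring, had the largest rise in 769-P, at 1.43 (adjusted p = 4.76e-10), and ATP5MC1, another, that in CAKI-1, at 0.55 (adjusted p = 1.86e-04). ATP5MC2 had the largest called fall in CAKI-1, at -0.35 (adjusted p = 0.00176). The proteins of the cytosolic ribosome went the other way, with 4 of 76 higher and 47 lower in 769-P (median -0.19) and 2 of 77 higher and 60 lower in CAKI-1 (median -0.34). RPS27 had the largest fall in both, at -1.55 in 769-P (adjusted p = 8.45e-07) and -1.08 in CAKI-1 (adjusted p = 8.52e-06), and RPS26 the largest rise, at 0.66 (adjusted p = 0.00208) and 0.65 (adjusted p = 0.00748). In 769-P the medians of the mitochondrial and of the cytosolic ribosome genes had opposite signs under each scaling tried. Like the members, the respiratory chain genes had mostly larger effects in 769-P, with 50 of 75 differences called toward 769-P. Of 76 cytosolic ribosomal protein genes, 15 had a called difference toward 769-P and 3 toward CAKI-1, with a median difference of 0.12. Over all genes the shares were 10.9% and 10.1%.

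**Figure D5:**
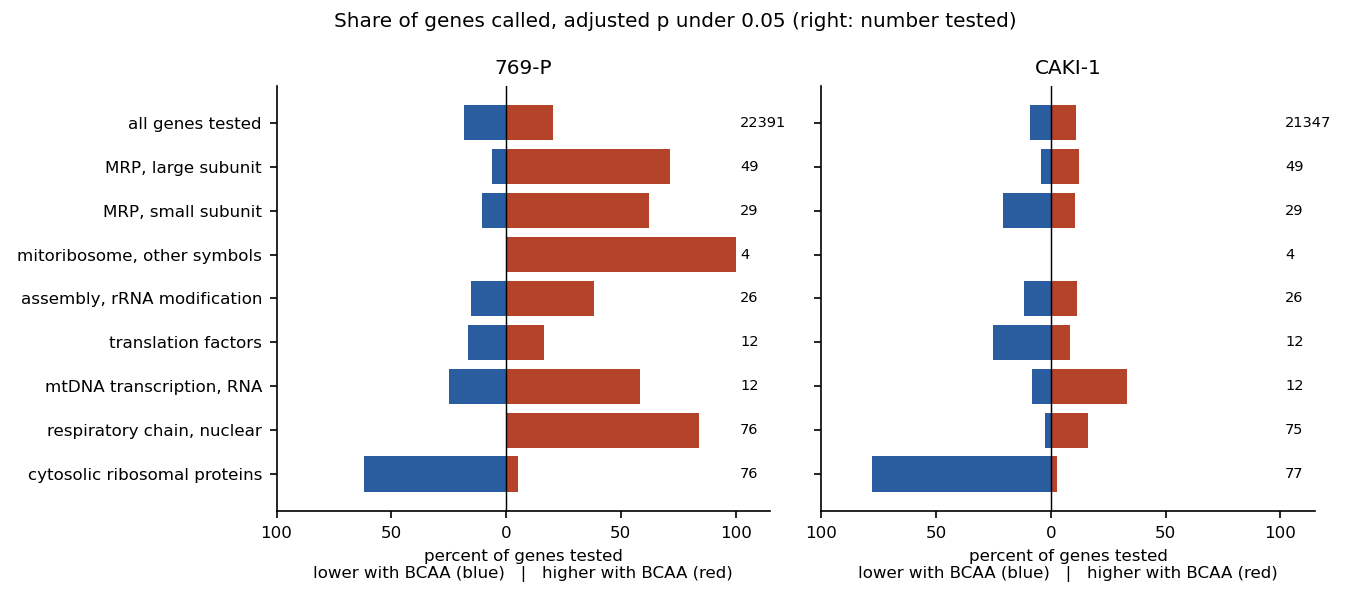
Percent of the genes tested in each group (x axis) that were called higher (red, right) or lower (blue, left) with BCAA, in 769-P and CAKI-1, with the number tested at the right edge and all genes in the top row. In 769-P, 71.4% of large-subunit and 62.1% of small-subunit genes were called higher, while 61.8% of cytosolic ribosomal protein genes were called lower.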

How the data were processed

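RNA-seq libraries of 769-P and CAKI-1 cells (2 per group, 8 in all) were analysed from 1 deposited table per line. The submitters' processing notes name Trim Galore, TopHat2 2.1.0, SAMtools 1.3.1, HTSeq 0.6.0, DESeq, DESeq2 and hg38, without their roles. The counting mode and use of strand are not given in the sources used here. The deposited values are a signal per gene, reads divided by 1 size factor per library, which the authors set within each line. All values were whole multiples of 1 read, and reads were recovered from them, 30979773 to 64256834 per library. No column of per-sample values was left unused (0).

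Because the values were normalized, genes whose mean reached 1 were kept and log2(value + 1) was fitted in limma 3.58.1 (R 4.3.3, eBayes with trend) per line, and an interaction term over all 8 libraries tested the difference between lines. Benjamini-Hochberg adjustment ran over all genes tested. The script was tested on simulated data. A paired fit was not the main one, since the labels do not say that equal replicate numbers mark pairs. Alternatives were other pseudocounts (0.1 and 5), other filters, quantile normalization, median centering, a replicate block, edgeR 4.0.16 and DESeq2 1.42.0 on recovered reads, reads thinned to 30979773 per library, a spread over 8 libraries, leaving out each library, stricter thresholds and subunits by structure. The spread from 7 libraries and the restriction on shared exons and low means were chosen after seeing the data.

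Members were matched by Ensembl ID, and lengths, exons and neighbouring starts came from the annotation of GRCh38. Promoters came from RefSeq (GRCh38.p14). The members and gene lists were chosen with earlier results of these data known. Members named by rule were, per line, the 6 largest called rises and 4 largest called falls without overlap, the 3 highest and 3 lowest levels, the 4 largest called differences between lines, and a fixed set (DAP3, MRPS30, MRPS18A, MRPS18C, MRPL12, MRPL11, MRPL3, MRPL45, MRPS12), and from each other list the largest called rise and fall. Other genes were named after their values were seen. Among them were MRPS7, MRPS36, MRPL46, MRPL23, EME1, SKA3, SLC7A7, APBA3, PNPLA7, NRF1, GABPA and the remaining members called lower.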

Additional observations from a re-analysis of the deposited data

Results flagged for a closer look

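The BCAA effect differed between 769-P and CAKI-1, by the interaction term of the limma fit, for 21 members. They are listed here because the test of the difference itself passed its threshold. Each difference is the log2 fold change in 769-P minus that in CAKI-1. It was 0.73 for MRPL33, 0.65 for MRPL14, 0.60 for MRPL24, 0.56 for MRPS18C and 0.55 for MRPL21. The next members were MRPL2 with 0.47, MRPL34 with 0.47, MRPS35 with 0.46, MRPS21 with 0.42, MRPL43 with 0.40, MRPL27 with 0.36 and MRPS6 with 0.36. The last were MRPL3 with 0.35, MRPL51 with 0.34, MRPS22 with 0.34, MRPL57 with 0.34, MRPL49 with 0.34, MRPL17 with 0.31, MRPL30 with 0.30, MRPL10 with 0.28 and MRPL35 with 0.26. In MRPL24 and MRPS35 the call was higher in 769-P and lower in CAKI-1, and in MRPL10 it was lower in both. No group had enough libraries for a check of outlying samples.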

How the results depend on the processing

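The rise of most members in 769-P kept its direction under every alternative run. The count of 53 was not within 1.5 times only on leaving out 1 library with the spread from the other 3 (4 to 14) and at a fold change of at least 1.5 (3). The 6 lower calls in 769-P became 1 with median centering, 3 in edgeR, 1 at an adjusted p of 0.01, 1 at 1.5-fold and 0 to 2 without 1 library. In CAKI-1 the 9 higher and 8 lower calls became 3 and 7 with quantile normalization, 13 and 5 with median centering, 4 and 4 with thinned reads, 3 and 2 at an adjusted p of 0.01, and 0 and 0 at 1.5-fold. The counts over all genes also moved with these scalings and with thinned reads. Leaving out 1 CAKI-1 library left 0 calls among all genes with the spread from the other 3, so that this says nothing about the members, and 7 to 9 higher and 4 to 9 lower with the spread from 7 (lower calls were 5 without replicate 1 with BCAA and 4 without replicate 1 without BCAA). The 21 differences between lines became 11 at an adjusted p of 0.01, 3 at 1.5-fold and 14 to 24 without 1 library. Of the 24 without replicate 2 of CAKI-1 without BCAA and of the 24 with a pseudocount of 5, 23 were toward 769-P and 1 toward CAKI-1 (MRPL23 and MRPL45 in turn). A lone library is assumed to vary like the other groups.

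The subunit medians in 769-P, 0.32 and 0.25, were 0.28 and 0.21 with quantile normalization, 0.36 and 0.29 with median centering, 0.35 and 0.27 in edgeR, and 0.23 for the small subunit with thinned reads. In CAKI-1 they were 0.12 (large, median centering) and -0.068 (small, quantile normalization). Without 1 library they ran from 0.31 to 0.35 (large) and from 0.23 to 0.27 (small) in 769-P and from 0.057 to 0.10 (large) and from -0.061 to 0.060 (small) in CAKI-1.

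Deviations of same-numbered libraries correlated at -0.015 in 769-P and 0.020 in CAKI-1, so no large shared deviation was seen. The labels do not say whether same-numbered libraries were cultured or processed together. With 1 such value per line, the correlation cannot settle it. With the replicate block, 50 members were higher and 6 lower in 769-P, 8 and 7 in CAKI-1, and 18 differed. Of the values of named members, the call of the MRPL10 difference was lost with the block and no other was.

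Some values that had not passed the test turned sign in some settings, including values of members called in the other line. MRPL15 in 769-P was 0.023 with median centering, 0.0051 in edgeR and -0.044 to 0.0090 without 1 library. MRPL3 in CAKI-1 was -0.0060 and MRPL51 in CAKI-1 -0.034 with quantile normalization, and MRPL51 was -0.0028 to 0.058 without 1 library. MRPL38 was -0.16 in 769-P and 0.076 in CAKI-1 with thinned reads, with a difference of -0.24, and in CAKI-1 0.016 with quantile normalization and 0.021 with median centering. Without 1 library MRPL38 ran from -0.085 to 0.18 in 769-P (-0.00088 without replicate 2 without BCAA) and from -0.19 to 0.15 in CAKI-1 (0.030 without replicate 1 with BCAA), and its difference from -0.10 to 0.24. MRPS24 in 769-P was -0.021 with thinned reads and -0.26 to 0.59 without 1 library, and MRPS9 in 769-P was 0.011 with median centering. Without 1 library the difference of MRPL19 ran from -0.064 to 0.11, MRPS18A in CAKI-1 from -0.21 to 0.051, MRPS18C in CAKI-1 from -0.26 to 0.023 and MRPS30 in 769-P from -0.12 to 0.018. The causes were not tested.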
